A study of Mus musculus with 40 samples.

Results

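The HoxD cluster holds 9 genes on mouse chromosome 2 (Hoxd13, Hoxd12, Hoxd11, Hoxd10, Hoxd9, Hoxd8, Hoxd4, Hoxd3 and Hoxd1), taken here by name from 55450 annotated genes. Each was described by the histone peaks at its promoters, meaning 3000 bp around each annotated transcript start, of which 2000 bp lie upstream and 1000 bp downstream, and by the peaks along the cluster. Primary oligodendrocyte precursor cells (OPCs), the dividing cells that give rise to myelinating oligodendrocytes, were profiled by ChIP-seq for H3K27me3 and H3K4me3. Mice carried the H3.3 K27M mutation as a Cre-dependent knock-in at H3-3a, recombined by hGFAP-Cre in neural stem and progenitor cells of the embryo, and their littermates without the mutation served as control. The strain background was FVB, and the submitters' labels spell the line AMGFAP-Cre;K27M. Brainstems and dorsal telencephalons of litters at postnatal day 5 to 7 were pooled by region and genotype, so that 1 culture is a pool of animals, and OPCs were caught on an anti-PDGFRa dish after endothelial cells and microglia had been depleted. All cultures were kept undifferentiated in a proliferation medium with PDGF. Brainstem-derived cultures 59 and 61 and telencephalon-derived cultures 59, 60 and 61 (labelled cortex) each had a K27M and a control member, which gave 5 matched pairs and 10 libraries per mark. Numbers 59 and 61 occur in both tissues, and the labels do not say whether cultures of the same number came from the same litters.

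Hox genes encode homeodomain transcription factors that fix position along the body axis, and genes at the 3′ end of a cluster (Hoxd1) act further forward than those at the 5′ end (Hoxd13). In the brain they are used by the hindbrain and not by the forebrain, where Polycomb Repressive Complex 2 keeps the clusters under H3K27me3, a mark of repression. H3K4me3 marks CpG-rich and active promoters, and a promoter with both marks is called bivalent. The K27M histone interferes with the spreading of H3K27me3 away from the sites where Polycomb is recruited.

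The peak lists held 4739 to 64808 H3K27me3 peaks over 13.3 to 152 Mb of the genome, and 20961 to 31200 H3K4me3 peaks over 28.8 to 48.6 Mb. The H3K27me3 lists were the shorter ones in the K27M culture of all 5 pairs. A peak carries a fold enrichment over input, which is 1 value for its whole length. Signal under the peak caller's threshold was not recorded, read depth is not part of the lists, and in a pool of cells a weaker peak can come from fewer marked cells or from less mark per cell, which cannot be told apart. All 5 OPC markers (Pdgfra, Cspg4, Olig1, Olig2 and Sox10) had an H3K4me3 peak and no H3K27me3 peak in all 10 libraries. No H3K4me3 peak stood at 4 of 5 microglial markers (P2ry12 was the exception) or at 4 of 5 endothelial markers (Cldn5 was the exception) in any library, whereas Slc1a2 and Gja1 of the 5 astrocyte markers and Rbfox3, Snap25 and Syt1 of the 5 neuronal ones had one in all libraries. Of these, Rbfox3 and Gja1 were bivalent in the controls of both tissues. Snap25 and Syt1 had H3K27me3 in some controls and in no K27M library, and Slc1a2 had it in no library. The brainstem markers Irx1, Irx2, Irx3 and Irx5 had H3K27me3 in 0 of 4 brainstem and 6 of 6 telencephalon libraries. The telencephalon markers Emx1, Emx2 and Otx1 had H3K4me3 in 6 of 6 telencephalon libraries, and H3K27me3 in 4 of 4 brainstem libraries. Emx1 and Otx1 also had H3K4me3 in 4 of 4 brainstem libraries and were bivalent in the controls of both tissues, so that they did not separate them. Emx2 had H3K4me3 in both brainstem controls and in no brainstem K27M library. Telencephalon culture 59 had the lowest median H3K4me3 fold enrichment of all libraries, 3.57 in its control and 4.98 in its K27M member against 6.55 to 13.8 elsewhere.

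All members lie on the plus strand. In 5′ to 3′ order they are Hoxd13 (chr2:74668310-74671599), Hoxd12 (chr2:74675013-74677705), Hoxd11 (chr2:74679557-74687016), Hoxd10 (chr2:74691924-74695105), Hoxd9 (chr2:74697727-74700208) and Hoxd8 (chr2:74704615-74707933). Hoxd3 (chr2:74711927-74748442) and Hoxd4 (chr2:74711929-74729160) overlap and share a distal start, and Hoxd1 (chr2:74762980-74765142) is the last. Coordinates are those of mm10, the build of the files, from the GENCODE annotation.

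The sequence before the transcript starts showed how differently the members are built. The 250 bases upstream of 5 starts are printed 5′ to 3′ from GRCm38, the assembly behind mm10, with each CpG in capitals. Hoxd13, at the 5′ end of the cluster, and Hoxd12 next to it are shown because the first had H3K4me3 in telencephalon controls 60 and 61 and the second in 1 library. The distal start shared by Hoxd3 and Hoxd4, the inner Hoxd3 start and Hoxd1 are shown because their H3K4me3 values are set against each other between tissues.
Hoxd13-201, chr2:74668060-74668309, plus strand: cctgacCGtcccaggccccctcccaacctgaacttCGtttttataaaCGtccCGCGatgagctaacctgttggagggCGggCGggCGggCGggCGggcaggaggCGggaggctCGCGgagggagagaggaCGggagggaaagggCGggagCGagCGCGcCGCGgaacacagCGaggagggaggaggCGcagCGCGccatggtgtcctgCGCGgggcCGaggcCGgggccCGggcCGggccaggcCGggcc
Hoxd12-201, chr2:74674763-74675012, plus strand: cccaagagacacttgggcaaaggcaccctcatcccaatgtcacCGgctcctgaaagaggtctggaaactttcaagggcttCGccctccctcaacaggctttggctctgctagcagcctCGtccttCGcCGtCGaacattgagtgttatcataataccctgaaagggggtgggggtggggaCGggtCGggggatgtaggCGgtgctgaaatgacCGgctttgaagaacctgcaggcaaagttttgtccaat
Hoxd3-203, distal start, chr2:74711677-74711926, plus strand: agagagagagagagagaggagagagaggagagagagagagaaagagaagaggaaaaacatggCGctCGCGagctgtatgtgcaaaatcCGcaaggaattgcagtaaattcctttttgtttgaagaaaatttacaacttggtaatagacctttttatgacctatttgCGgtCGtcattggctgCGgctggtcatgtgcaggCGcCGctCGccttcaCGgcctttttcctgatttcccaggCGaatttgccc
Hoxd3-205, inner start, chr2:74732663-74732912, plus strand: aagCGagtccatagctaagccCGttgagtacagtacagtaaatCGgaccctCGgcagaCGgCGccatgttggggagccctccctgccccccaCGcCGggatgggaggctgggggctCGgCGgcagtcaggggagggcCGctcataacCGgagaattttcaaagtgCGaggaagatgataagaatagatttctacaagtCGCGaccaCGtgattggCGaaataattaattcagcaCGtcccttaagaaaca
Hoxd1-201, chr2:74762730-74762979, plus strand: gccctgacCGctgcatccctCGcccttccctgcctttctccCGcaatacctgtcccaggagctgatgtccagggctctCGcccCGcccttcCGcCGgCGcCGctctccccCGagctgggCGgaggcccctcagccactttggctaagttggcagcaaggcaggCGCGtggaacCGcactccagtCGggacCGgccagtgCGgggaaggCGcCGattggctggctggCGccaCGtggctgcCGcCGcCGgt
The stretches of Hoxd13 and Hoxd12 lie between genes, that of Hoxd3-203 overlaps the antisense transcript Hoxd3os1, and that of Hoxd3-205 lies in an intron of the longest Hoxd3 transcript. The stretch of Hoxd1 overlaps the first exon of the non-coding transcript Haglr, on the other strand.

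CpG content varied widely among the members. The Hoxd13 stretch held 31 CpG, a count that 5.19% of 32851 RefSeq promoters of the same length reach. Hoxd1 held 24 (12% of promoters), the inner Hoxd3 start 18 (21.7%), the distal Hoxd3 start 12 (33.5%) and Hoxd12 10 (37.8%). Over all 19 transcript starts of the members, 12 exceeded the median promoter, which held 6. The retinoic acid receptor half-site AGGTCA, searched on both strands, occurred before 5 of the 19 starts (Hoxd10-201, Hoxd8-203, Hoxd3-203, Hoxd4-203 and Hoxd4-201), and 14% of all promoters hold it. The stretches of Hoxd3-203 and Hoxd4-203 overlap and share the same match.

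H3K27me3 covered every member in every culture. All 9 genes had an H3K27me3 peak in all 10 libraries, against 3.28% of all genes and 5.79% of protein-coding genes. The best-covered promoter of each gene lay under peaks for 3000 of its 3000 bp in each library, so that no gene differed in this measure between tissues or genotypes. Of the 2964 genes with a promoter peak in all 5 control libraries (5.35% of all genes), 61.4% also had one in all 5 K27M libraries, and all 9 members were among them. By group, 9 of 9 members had a peak in every brainstem control library (9.43% of all genes), every brainstem K27M library (5.42%), every telencephalon control library (5.84%) and every telencephalon K27M library (3.67%).

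**Figure D1:**
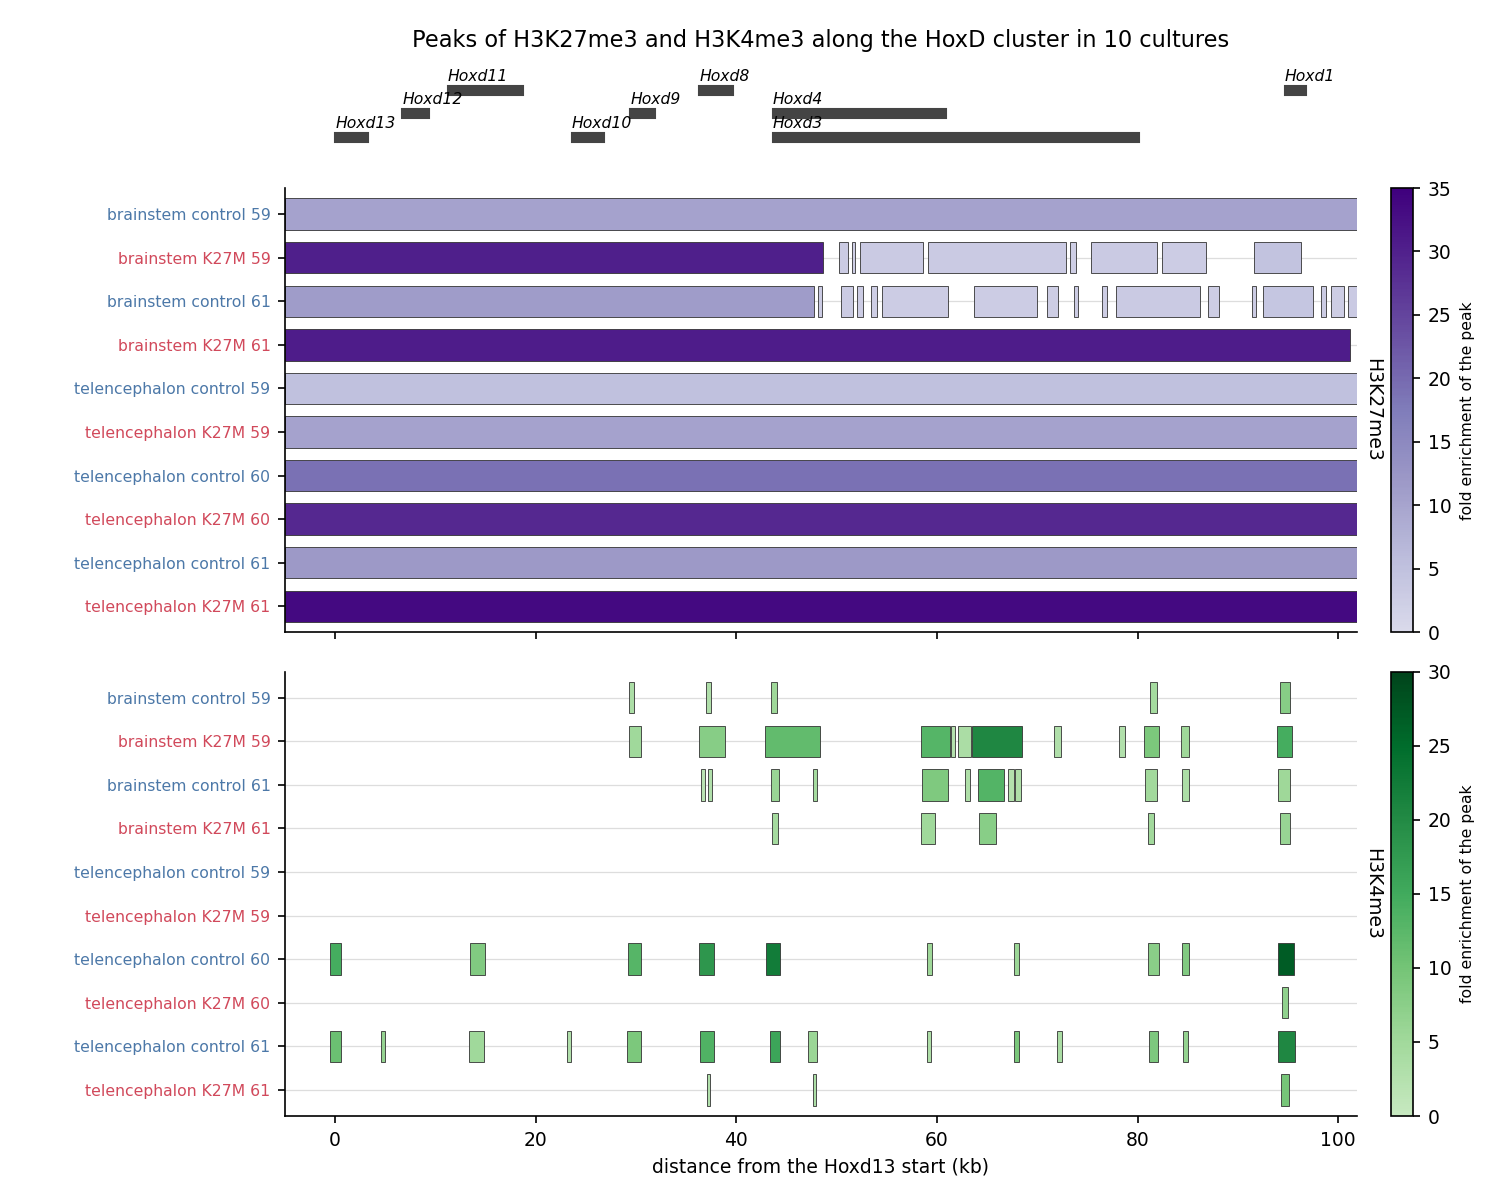
Peaks of H3K27me3 (upper rows) and H3K4me3 (lower rows) along the HoxD window in each of the 10 cultures, by distance from the Hoxd13 start in kb, with gene bodies on top. Each box is 1 peak, darker where its fold enrichment is higher. H3K27me3 spans the window in 7 cultures without a break and reaches close to its end in brainstem K27M 61, whereas in brainstem K27M 59 and brainstem control 61 its long peak stops inside the cluster. H3K4me3 lies mainly on the Hoxd8 to Hoxd1 side in brainstem cultures.

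Along the cluster the mark formed 1 long domain. The window measured runs from 5000 bp before Hoxd13 to 5000 bp after Hoxd1, chr2:74663310-74770142, which is 106833 bp. Peaks covered 100% of it in all 6 telencephalon libraries and in brainstem control 59. The other brainstem values were 99.4% in K27M 61, 85.3% in K27M 59 and 82.3% in control 61. The longest peak was 129323 to 153740 bp in the 8 libraries in which it ran through the cluster, and it ranked 2 to 9 by length among all peaks of its library.

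The breaks in the domain lay toward Hoxd1. From Hoxd13 to the end of Hoxd9 the cover was 100% in all 10 libraries. In brainstem K27M 59 the long peak measured 76163 bp and ended 4999 bp beyond the distal Hoxd3 start, and 8 shorter peaks with fold enrichments of 2.41 to 4.68 followed. In brainstem control 61 it measured 77194 bp, ended 4080 bp beyond that start and was followed by 16 shorter peaks at 2.48 to 4.19. Between the Hoxd4-201 start and the end of the window these libraries had 72.5% and 68.1% of the bases under peaks, against 98.6% in brainstem K27M 61 and 100% in brainstem control 59. The broken domain was therefore seen in 1 K27M and 1 control culture, each from a different pair.

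Cover of the HoxD window did not follow genotype. The difference of K27M from control was -14.7 percentage points in brainstem 59, 17.1 in brainstem 61 and 0 in the 3 telencephalon pairs, with a mean of 0.47 ± 11.3 (SD, n = 5) and p = 1 (exact two-sided sign-flip permutation test). It was 4.27 points without brainstem pair 59 and -3.68 points without brainstem pair 61. Stricter or equal numbers of peaks gave 3.01 to 4.39 points. A value of 100% cannot go higher, and the smallest p that 5 pairs allow is 0.0625 (exact test, 32 arrangements). All p-values measure the spread between pooled cultures, not between animals. Apart from the replicate block for tissues given at the end, the tests take brainstem and telencephalon cultures of the same number as independent. If these share litters, there are fewer independent units than pairs. Over the 9 pair comparisons made, Benjamini-Hochberg adjusted p from the exact tests was 0.1125 for those with p = 0.0625 and 1 for the other 4. The K27M difference was 1.17 points lower in telencephalon than in brainstem cultures (exact permutation p = 0.7 over 10 arrangements, of which the smallest possible is 0.1).

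The long H3K27me3 peak had the higher fold enrichment in the K27M culture of all 5 pairs. The value belongs to a whole peak called separately in each library, so that the intervals compared differ in length and the ratio is not a fold change of one fixed region. They measured 76163 bp in K27M and 153740 bp in control in brainstem 59, 129523 and 77194 bp in brainstem 61, and 129323 to 131707 bp against 140589 to 153683 bp in the telencephalon. Its fold enrichment was 30.4 in brainstem K27M 59 and 10.3 in its control. In brainstem 61 the values were 30.6 and 11.4. In telencephalon 59, the culture with the lowest values, they were 10.3 and 4.99. They were 28.8 and 19.0 in telencephalon 60, and 33.6 and 11.9 in telencephalon 61. The ratio of K27M to control ran from 1.52 to 2.94, with a mean of 1.22 ± 0.40 on the log2 scale (SD, n = 5), higher in 5 of 5 pairs, exact sign-flip p = 0.0625. Divided by the median fold enrichment of all peaks in the library, the mean was 1.01 ± 0.30 on the log2 scale, again higher in 5 of 5 pairs (exact sign-flip p = 0.0625). Control and K27M values of the raw fold enrichment overlapped, since telencephalon K27M 59 at 10.3 lay below 4 of the 5 controls.

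This difference was shared with the other Hox clusters. The ratio of K27M to control for the longest peak was 1.39 to 2.75 in HoxA, 1.70 to 3.68 in HoxB and 1.54 to 2.88 in HoxC, above 1 in 5 of 5 pairs in each. The covered length of the genome was 13.3 to 41.4 Mb in K27M and 26.5 to 152 Mb in control libraries, lower in K27M in 5 of 5 pairs. Its part in the fold enrichment was not tested. The spike-in chromatin of the study was not used in the peak calls.

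The genome as a whole had less H3K27me3 cover in K27M cultures, and the HoxD window was set against it. The log2 ratio of K27M to control covered length was higher in the HoxD window than over the genome in 5 of 5 pairs, by 1.96 in brainstem 59, 1.00 in brainstem 61, 1.00 in telencephalon 59, 1.21 in telencephalon 60 and 2.83 in telencephalon 61. The mean was 1.60 ± 0.79 (SD, n = 5; exact sign-flip p = 0.0625). The window was at 100% in both members of the 3 telencephalon pairs, so that their values restate the shorter covered length of the genome alone. With equal numbers of peaks per library the mean was 0.81, and with a minimum fold enrichment of 3 it was 0.97. Set against the mean of HoxA, HoxB and HoxC, the change in percent covered was higher in HoxD in 4 of 5 pairs and 10.7 points lower in brainstem 59, mean 0.43 ± 6.25 points (exact sign-flip p = 1). The mean was 3.21 points without brainstem pair 59 and between -0.52 and -0.05 points without any 1 of the others. It was 3.78 to 4.94 points with stricter or equal numbers of peaks. For promoters, the median difference of K27M from control over the 9 members was 0 bp, and over the 14152 genes with an H3K27me3 peak in any library it was -366.4 bp. No member had less H3K27me3 at its best promoter in K27M in 5 of 5 pairs, as 2.43% of all genes did. Both member values restate the cover of 3000 of 3000 bp in every library. At a share of 2.43%, finding none among 9 members says little.

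**Figure D2:**
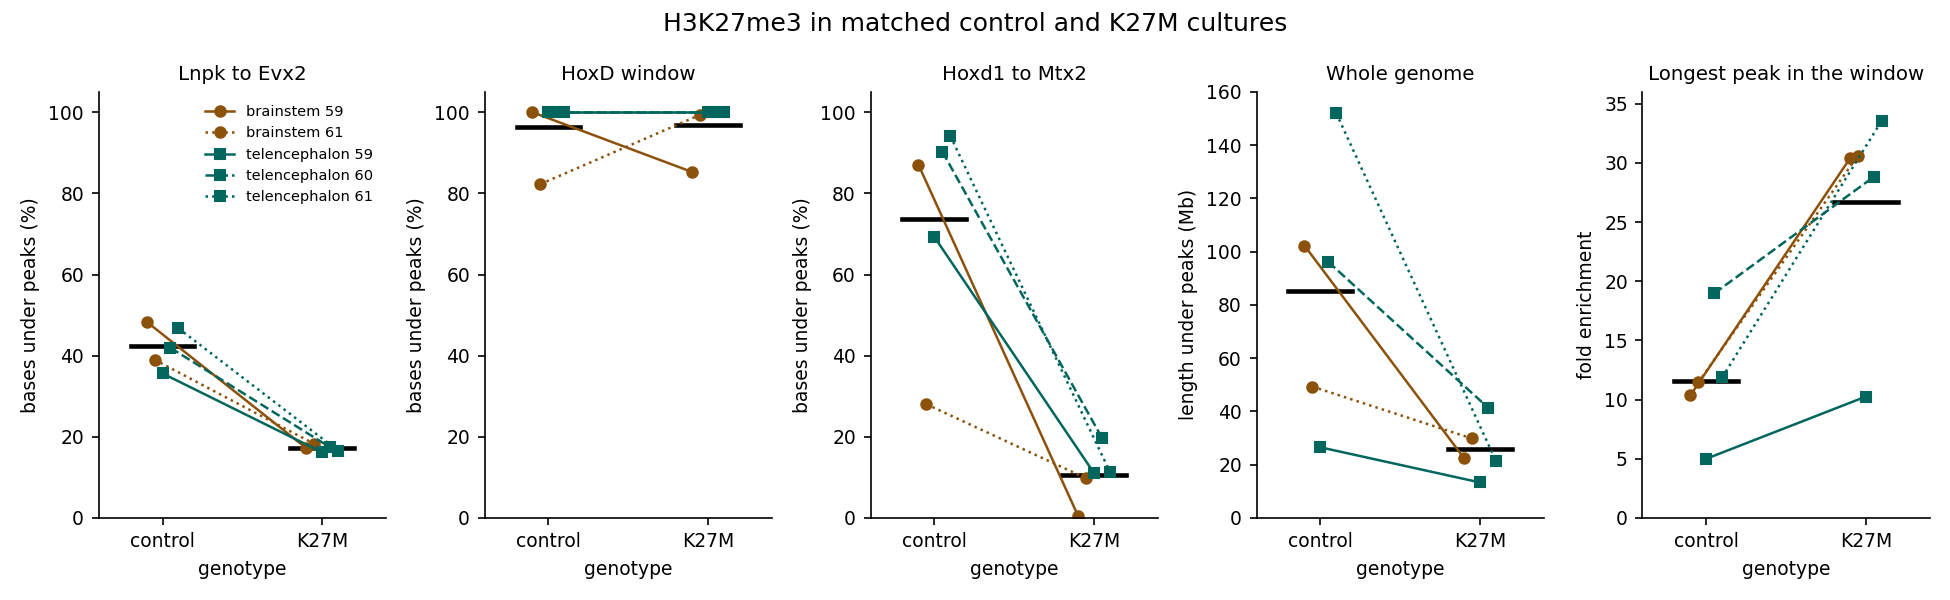
H3K27me3 in matched control and K27M cultures, with 1 line per pair (brown circles, brainstem; green squares, telencephalon) and black bars for the mean of 5. From left to right: percent of bases under peaks between Lnpk and Evx2, in the HoxD window and between Hoxd1 and Mtx2, covered length of the genome in Mb, and fold enrichment of the longest peak in the window. The flanks lie at 35.6 to 48.4% and 28.0 to 94.1% in controls and at 16.2 to 18.2% and 0.493 to 19.7% in K27M cultures, and the window between 82.3 and 100%.

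The flanks of the cluster had less H3K27me3 in the K27M culture of all 5 pairs. Lnpk, a protein of the endoplasmic reticulum, and Evx2, a homeobox gene beside Hoxd13, bound the 5′ flank of 73555 bp (chr2:74579436-74652990). Peaks covered 48.4% of it in brainstem control 59 and 17.2% in its K27M pair. The values were 39.0% and 18.2% in brainstem 61, 35.6% and 16.2% in telencephalon 59, 41.9% and 17.4% in telencephalon 60, and 46.7% and 16.5% in telencephalon 61. All 5 K27M libraries lay below all 5 controls, with a mean difference of -25.2 ± 5.33 points (SD, n = 5; exact sign-flip p = 0.0625). With a minimum fold enrichment of 3 for a peak to count, the mean difference was -8.43 points, and with equal numbers of peaks per library it was -5.40 points. Over the whole genome the covered length was also lower in K27M in each pair. It was 22.4 against 102 Mb in brainstem 59 and 29.8 against 49.3 Mb in brainstem 61. In telencephalon 59, 60 and 61 it was 13.3 against 26.5, 41.4 against 96.2 and 21.4 against 152 Mb.

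In the flank beyond Hoxd1 the K27M libraries were also the lower ones. The 60660 bp from Hoxd1 to Mtx2, a mitochondrial outer membrane protein gene (chr2:74765143-74825802), were covered by 87.1% in brainstem control 59 and 0.493% in its K27M pair. The values were 28.0% and 9.76% in brainstem 61, 69.2% and 11.0% in telencephalon 59, 90.3% and 19.7% in telencephalon 60, and 94.1% and 11.3% in telencephalon 61. The groups did not overlap, and the mean difference was -63.3 ± 27.5 points (SD, n = 5; exact sign-flip p = 0.0625). With equal numbers of peaks per library the mean difference was -40.3 points (exact sign-flip p = 0.125). Both flanks were chosen after the peaks had been seen, and neither was tested against the shorter covered length of the genome in K27M. When the window was widened by 20000 bp on each side, and so took in part of the flanks, the mean difference of K27M from control changed from 0.47 to -6.54 points (exact sign-flip p = 0.313).

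The ends of the long peak were measured too. Its end beyond Evx2 lay 29356 to 31183 bp before the Hoxd13 start in controls and 26854 to 28370 bp before it in K27M cultures, closer in each pair by 1126 to 3935 bp. In the telencephalon its other end lay 14400, 17135 and 25744 bp past the end of Hoxd1 in controls 59, 60 and 61, and 5636, 7124 and 6033 bp past it in the matching K27M cultures. In the brainstem that end could not be compared, because the peak broke off inside the cluster in 1 member of each pair.

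Of the 5 neighbouring genes, Evx2 behaved like the cluster and Mtx2 did not. Evx2 lay under H3K27me3 for 3000 bp in all 10 libraries, and no H3K4me3 peak stood there. The Mtx2 promoter had H3K27me3 over 1059 and 496 bp in brainstem controls 59 and 61 and over 512, 1079 and 836 bp in telencephalon controls 59, 60 and 61, and over 0 bp in all 5 K27M libraries. Among all genes, 0.554% had such a peak in all 5 controls and in no K27M library, and among the 2964 genes with one in all controls 10.4% did. H3K4me3 covered 1323 to 1681 bp of the Mtx2 promoter in all 10 libraries. Lnpk, Atp5g3 and Chn1 had H3K4me3 in all 10 libraries, and the only H3K27me3 peak among them was that of Chn1 in 1 brainstem control.

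The number of members with H3K4me3 varied between cultures from 0 to 9. Hoxd1 had a peak in 8 of 10 libraries, Hoxd3, Hoxd4 and Hoxd8 in 6 each, Hoxd9 in 4, Hoxd13 and Hoxd11 in 2 each, and Hoxd12 and Hoxd10 in 1 each. Over all genes 28.7% had one in all 10 libraries, and 0 of the 9 members did. In every library of a group a peak was found at 4 members in brainstem controls (31.2% of all genes), 3 in brainstem K27M (30.8%), 0 in telencephalon controls (29.1%) and 0 in telencephalon K27M cultures (30.5%). No member had less H3K4me3 in K27M in 5 of 5 pairs (0.24% of all genes). None could, since both cultures of telencephalon pair 59 were at 0 bp for every member. No member had more of it in every brainstem library than in every telencephalon library, as 0.124% of all genes had. At so low a share, 0 of the 9 members says little. The reverse order (0.0343% of all genes) could not occur, again because of telencephalon culture 59.

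**Figure D3:**
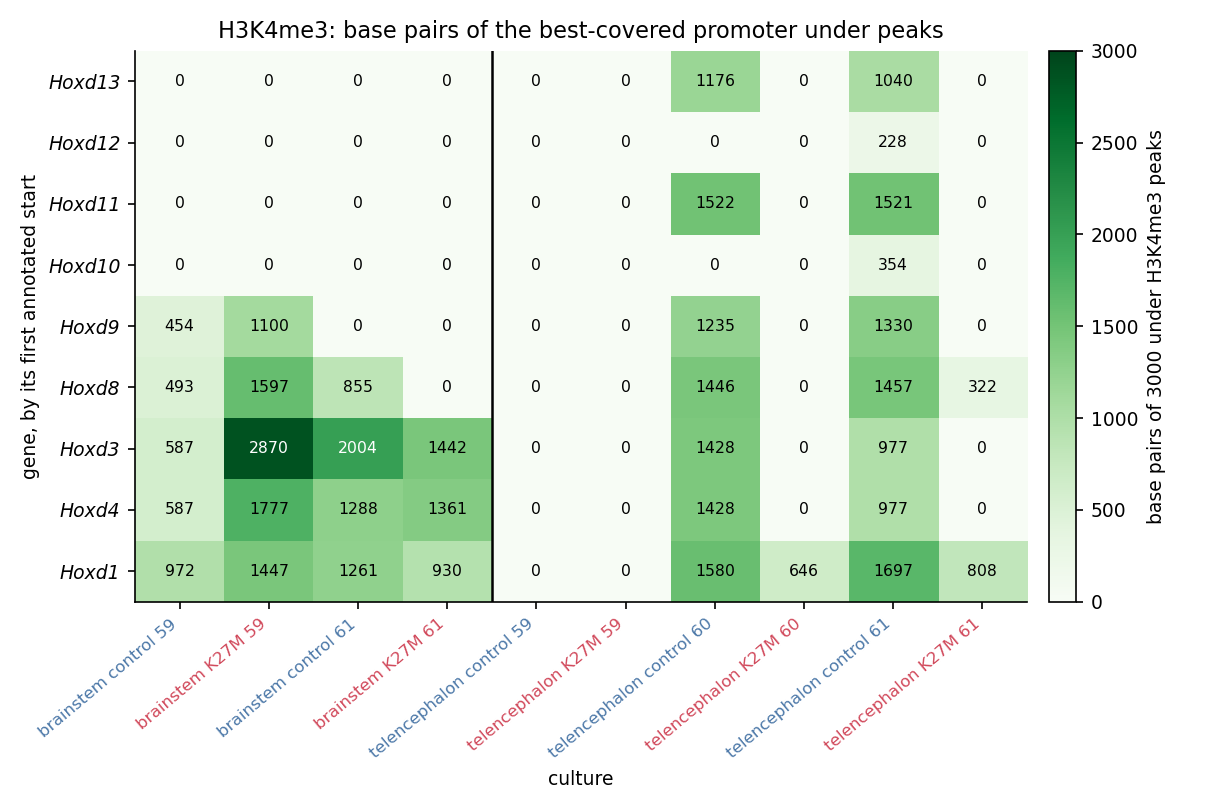
Base pairs of the best-covered promoter of each HoxD gene under H3K4me3 peaks, of 3000 bp, with genes in rows and cultures in columns (blue labels, control; red labels, K27M; the line separates brainstem from telencephalon). Hoxd13 to Hoxd10 are at 0 in all 4 brainstem cultures, and telencephalon culture 59 is at 0 for all genes.

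Hoxd1, the most 3′ member, was the most widely marked. Its promoter lay under H3K4me3 for 972 and 1447 bp in brainstem control and K27M 59, and for 1261 and 930 bp in brainstem control and K27M 61. In the telencephalon the control and K27M values were 0 and 0 bp in culture 59, 1580 and 646 bp in culture 60, and 1697 and 808 bp in culture 61. The ranges of the tissues overlapped. K27M was lower in 3 of 5 pairs and higher in 1, with a mean difference of -335.8 ± 599 bp (SD, n = 5). The highest fold enrichments stood in telencephalon controls 60 and 61, at 26.9 and 20.5, with 5.22 to 14.5 in the brainstem.

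Hoxd3 and Hoxd4, patterning genes of the posterior hindbrain and neck, have several starts each, and H3K4me3 differed among them. At the inner Hoxd3 start (Hoxd3-205, printed above) H3K4me3 covered 2870 bp in brainstem K27M 59, 1442 bp in brainstem K27M 61 and 2004 bp in brainstem control 61. It covered 0 bp in brainstem control 59 and in all 6 telencephalon libraries. The start was named after its values were seen. Of 132758 distinct promoters, 0.0188% had a peak in 3 of 4 brainstem and no telencephalon libraries. That share is no test of a start named for this pattern. By gene, Hoxb5 and Hoxb6 also had H3K4me3 in 3 of 4 brainstem libraries and in no telencephalon library. The fold enrichment at Hoxd3-205 was 20.6, 7.67 and 13.2 in the 3 brainstem libraries with a peak there, the highest in the window in each of them.

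The nearest Hoxd4 start (Hoxd4-202) was marked in the same brainstem libraries. Its cover was 1344 bp in brainstem K27M 59, 1361 bp in brainstem K27M 61, 1288 bp in brainstem control 61 and 0 bp in brainstem control 59. Telencephalon controls 60 and 61 had 448 and 458 bp there and the other 4 telencephalon libraries 0 bp, so that the tissues overlapped at the low end. Another Hoxd3 start (Hoxd3-202) had 2287 bp in brainstem K27M 59, 1619 bp in brainstem control 61, and 528 and 533 bp in telencephalon controls 60 and 61. The distal start of Hoxd3 and Hoxd4 (Hoxd3-203) was marked in all 4 brainstem libraries, over 586 to 1775 bp, and in telencephalon controls 60 and 61, over 1428 and 977 bp. Here the higher fold enrichments were those of the telencephalon controls, 22.4 and 15.9 against 4.50 to 11.8. Reads of a Hoxd3 and a Hoxd4 promoter at this place cannot be assigned to one gene, since the starts lie 2 bp apart.

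Mir10b lies between the Hoxd4 starts and encodes the microRNA miR-10b, whose mature strands from RefSeq are shown with the seed (bases 2 to 8) in capitals.
mmu-miR-10b-5p, chr2:74726074-74726096, plus strand: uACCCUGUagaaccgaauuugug
mmu-miR-10b-3p, chr2:74726114-74726135, plus strand: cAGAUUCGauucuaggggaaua
Its promoter window had H3K27me3 in all 10 libraries, over 2895 bp in brainstem K27M 59 and 3000 bp elsewhere. H3K4me3 reached it over 340 bp in brainstem K27M 59, 357 bp in brainstem K27M 61 and 284 bp in brainstem control 61, the 3 libraries marked at the inner Hoxd3 start, and over 0 bp in the other 7. These bases are the edge of the peak counted above at Hoxd4-202, which begins downstream of Mir10b, and not a separate peak.

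Hoxd8 and Hoxd9, in the middle of the cluster, had H3K4me3 in some cultures of both tissues. Hoxd8 was covered over 493 and 1597 bp in brainstem control and K27M 59, 855 and 0 bp in brainstem control and K27M 61, 1446 and 1457 bp in telencephalon controls 60 and 61, and 322 bp in telencephalon K27M 61. Hoxd9 was covered over 454 and 1100 bp in brainstem control and K27M 59, and over 1235 and 1330 bp in telencephalon controls 60 and 61. All other libraries were at 0 bp, and the tissues overlapped for both genes.

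Hoxd13, Hoxd12, Hoxd11 and Hoxd10, which act in the limbs and the posterior trunk, had no H3K4me3 peak in any brainstem library. In telencephalon controls 60 and 61 Hoxd13 was covered over 1176 and 1040 bp and Hoxd11 over 1522 and 1521 bp. Both were marked in these libraries and in no other, as were 0.483% of all genes. Genes of other Hox clusters shared this pattern. Hoxa9, Hoxa10, Hoxa11, Hoxc8, Hoxc9, Hoxc10 and Hoxc13 also had H3K4me3 in 2 of 3 telencephalon controls and in no other library. Hoxd12 and Hoxd10 were covered over 228 and 354 bp in telencephalon control 61. The Hoxd12 bases are the edge of a peak between Hoxd13 and Hoxd12 (chr2:74672844-74673240), with its summit at -1929 bp from the Hoxd12 start. No K27M library had a peak at any of these 4 HoxD genes.

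By library, the count of members with H3K4me3 ran from 0 in both members of telencephalon culture 59 to 7 and 9 in telencephalon controls 60 and 61. The matching K27M cultures 60 and 61 had 1 and 2. Brainstem controls 59 and 61 had 5 and 4, and their K27M pairs 5 and 3. In telencephalon pairs 60 and 61 the K27M value was the lower for every member with a peak. Over all genes, the share with a peak in every library was 29.1% in telencephalon controls and 30.5% in telencephalon K27M cultures. That share is not given here by library, for these pairs or without culture 59, so that the counts have no direct background. Leaving out telencephalon culture 59, 7 members had H3K4me3 in every telencephalon control, in place of 0. The median H3K4me3 fold enrichment of all peaks was 13.8 and 10.1 in telencephalon controls 60 and 61 and 9.26 and 7.92 in their K27M pairs, and its part in these counts was not tested.

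In percent of the window, H3K4me3 covered 3.02 and 22.3 in brainstem control and K27M 59, and 11.3 and 4.85 in brainstem control and K27M 61. In the telencephalon, control and K27M covered 0 and 0 in culture 59, 10.5 and 0.605 in culture 60, and 11.9 and 1.31 in culture 61. K27M was lower in 3 pairs, higher in 1 and equal in 1, and the mean difference was -1.54 ± 12.4 points (SD, n = 5; exact sign-flip p = 0.875). Without telencephalon pair 60 or 61 the mean changed sign, to 0.55 and 0.73 points, and without brainstem pair 59 it was -6.75 points. The bases under both marks differed by -1.51 ± 12.1 points (exact sign-flip p = 0.875), with 0.59 and 0.77 without telencephalon pairs 60 and 61 and -6.56 without brainstem pair 59.

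The parts of the cluster with H3K4me3 differed in place. From the Hoxd4-201 start to the end of the window, H3K4me3 covered 3.52% and 30.3% in brainstem control and K27M 59 and 20.8% and 9.53% in brainstem control and K27M 61. Telencephalon controls 60 and 61 had 9.03% and 9.80% there and their K27M pairs 1.34% and 1.68%. From Hoxd13 to Hoxd9 brainstem libraries had 0 to 3.15% and telencephalon controls 60 and 61 had 10.9% and 12.8%.

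**Figure D4:**
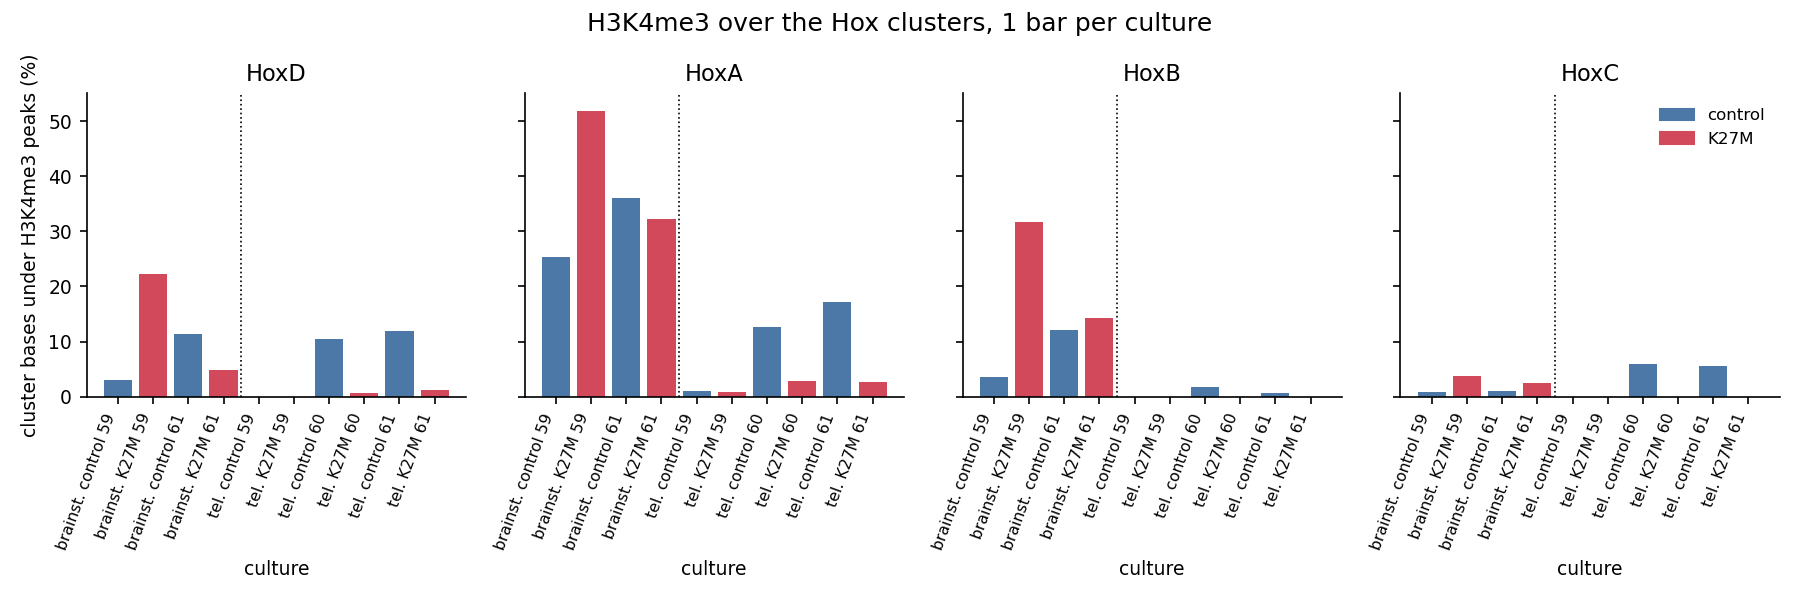
Percent of each Hox cluster window under H3K4me3 peaks, with 1 bar per culture (blue, control; red, K27M; the dotted line separates brainstem from telencephalon). HoxD runs from 0 to 22.3%, below HoxA in every library, and telencephalon controls 60 and 61 stand above the other telencephalon bars in all 4 clusters.

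Between tissues, H3K27me3 cover was higher in the telencephalon and H3K4me3 cover in the brainstem, and neither difference passed its test. The mean of both genotypes for H3K27me3 cover was 91.7 ± 1.28% (SD, n = 2) in brainstem and 100 ± 0% (n = 3) in telencephalon cultures, a difference of 8.27 points (exact permutation p = 0.1, the smallest possible), which was 13.3 to 14.3 points with stricter or equal numbers of peaks. Within genotypes it was 8.85 points in controls (exact permutation p = 0.4) and 7.68 points in K27M cultures (exact permutation p = 0.1). For H3K4me3 the means were 10.4 ± 3.25% and 4.06 ± 3.56%, a difference of -6.31 points of telencephalon from brainstem (exact permutation p = 0.2). The culture means did not overlap for either mark, but single libraries did. Brainstem control 59 was at 100% for H3K27me3, as was every telencephalon library. For H3K4me3, brainstem control 59 and K27M 61 were at 3.02% and 4.85%, below telencephalon controls 60 and 61 at 10.5% and 11.9%. The H3K4me3 means of controls were close, at 7.16% and 7.49% (exact permutation p = 0.9). Those of K27M cultures stood at 13.6% and 0.637% (exact permutation p = 0.1). Adjusted p over the 7 tissue comparisons (Benjamini-Hochberg, exact permutation) was 0.233 at the lowest.

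Consensus promoter states in controls differed in the number of bivalent members. A consensus region needed overlapping peaks in at least 2 control cultures that also passed limits on p. By this rule Hoxd1, Hoxd3 and Hoxd4 were bivalent in the brainstem and the other 6 had H3K27me3 only, where 4.6% and 3.01% of all genes had these states. In the telencephalon Hoxd12 and Hoxd10 had H3K27me3 only (3.75% of all genes) and the other 7 were bivalent (7.31%). No member was unmarked or had H3K4me3 only. Hoxd8, with H3K4me3 peaks in both brainstem controls at fold enrichments of at most 3.11 and 3.00, was not in a consensus H3K4me3 region there. The telencephalon count rests on cultures 60 and 61, since it was 0 without either of them. Requiring at least 1000 bp of a promoter under each mark, 1 member remained bivalent in the brainstem and 7 in the telencephalon.

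The other Hox clusters had the same marks in other proportions. H3K27me3 was found in every library of all 4 groups at all 10 HoxB and all 9 HoxC genes, while of the 11 HoxA genes 8 had it in every brainstem control library and 11 in every telencephalon control library. In the brainstem 4 HoxA, 3 HoxB and 0 HoxC genes were bivalent, and in the telencephalon 9, 1 and 7 were. H3K4me3 covered 25.3 to 51.8% of the HoxA window in the 4 brainstem libraries, 3.54 to 31.6% of HoxB and 0.842 to 3.78% of HoxC, against 3.02 to 22.3% of HoxD. In telencephalon controls 60 and 61 it covered 12.6% and 17.3% of HoxA, 1.79% and 0.719% of HoxB, and 5.85% and 5.52% of HoxC.

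The other transcripts of the window were also under H3K27me3. All 10 (Gm28309, Gm14396, Gm28793, Gm44463, Hoxd3os1, Mir10b, Gm28230, Haglr, Gm14424 and Gm14426) had H3K27me3 in all 10 libraries. Only the antisense transcript Hoxd3os1 and Haglr, which starts opposite Hoxd1, were bivalent in the brainstem, and 6 were in the telencephalon. Haglr had H3K4me3 over 930 to 1447 bp in the 4 brainstem libraries, and its promoter overlaps that of Hoxd1.

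Genes that work with Hox proteins or act on their level were marked in several ways. The cofactors Meis1, Meis2, Meis3, Pbx2, Pbx3 and Pbx4, homeodomain partners that bind DNA with Hox proteins, had H3K4me3 in all 10 libraries. H3K27me3 was in every library of a group at 1 of them, Pbx3 in brainstem controls, and Pbx3 had it in no brainstem K27M library, 1 of 3 telencephalon controls and 2 of 3 telencephalon K27M libraries. Of 9 retinoid and caudal regulators, 3 were bivalent in the brainstem (Rara, Cyp26a1 and Cyp26b1) and 5 in the telencephalon, with Cdx1 and Cdx2 added. Cdx1 and Cdx2, homeobox genes that turn on posterior Hox genes, had H3K27me3 in all 10 libraries, and H3K4me3 in 2 of 3 telencephalon controls and no other library, as did Hoxd13 and Hoxd11. In the controls of both tissues Cdx4 and Cyp26c1, the latter an enzyme that degrades retinoic acid, had H3K27me3 only, and the retinoic acid receptors Rarb and Rarg had H3K4me3 only.

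The genes outside the Hox clusters with the promoter cover most like the mean of the 9 members were Nr5a2, Kcnk15, Tnfaip2, Msx2 and Gja3. Pearson's r over the 20 libraries was 0.993, 0.992, 0.991, 0.990 and 0.990 among 16869 protein-coding genes. These values describe a profile of full H3K27me3 cover and little H3K4me3, since the 2 marks make up the 20 libraries.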

How the data were processed

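The 20 ChIP-seq libraries, 10 per mark, were analysed as lists of peaks, and the 20 matching inputs of the 40 samples were not used here. Per the labels and the study's methods, the authors aligned single-end reads of 100 bp to mm10 with bwa 0.7.17-r1188 in the nf-core chipseq 2.0.0 pipeline, and ran MACS2 2.2.7.1 on each library separately with its input as control, keeping duplicates, with a broad cutoff of 0.1 for H3K27me3 and narrow peaks for H3K4me3. Regions of the ENCODE blacklist were removed. Each deposited peak carries a fold enrichment over input, a ratio on a linear scale, and p and q as −log10 values. The deposited display score was not used as a measurement, and neither the spike-in nor read depth is part of the lists.

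Bases under peaks were counted at each promoter (2000 bp upstream to 1000 bp downstream of a start) of 55450 genes in GENCODE M21, where the study used another release. A gene took its best-covered promoter, and 1 bp of overlap counted as a peak. Consensus states combined peaks of at least 2 control cultures in the manner of MSPC, with stringent and weak p of 1e-08 and 0.0001 for H3K27me3 and 1e-10 and 1e-06 for H3K4me3. Matched pairs were compared by an exact two-sided sign-flip permutation test and tissues by an exact two-sided permutation of cultures, with a threshold of 0.05 and Benjamini-Hochberg adjustment. Each culture number is a matched K27M and control pair by the study's methods. Deviations from the group means correlated between the members of telencephalon pairs at 0.284, 0.227 and -0.0197 for H3K27me3 and 0.611, 0.282 and 0.394 for H3K4me3, and in the brainstem at -0.00748 and 0.0761. Sequences came from RefSeq and GRCm38.

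Named genes were all 9 members, the fixed lists of neighbours, window transcripts, cofactors, regulators, other Hox genes and cell markers, and the 5 genes most correlated with the members. Some genes of these lists are not reported here. The members and lists were chosen with earlier results of these data known. The flanks, the segments, the domain fold enrichment and the domain ends were added after the peaks had been seen. The scripts were tested on simulated data. Alternatives were another promoter and window size, stricter peaks, equal numbers of peaks, overlap and consensus rules, no pairing and leaving out each culture. Python 3.11.15, numpy 2.4.6, scipy 1.17.1 and pandas 2.3.3 were used.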

Additional observations from a re-analysis of the deposited data

How the results depend on the processing

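Under other settings, 108 tested values kept their direction without passing 0.05, 3 kept it and passed 0.05, and 12 changed direction. Of the counts of members, 39 stayed within 1.5 times the count given and 6 moved further. Paired tests cannot go below p = 0.0625 or tissue tests below 0.1 (exact permutation), so that staying above 0.05 says nothing of stability. With a minimum fold enrichment of 3, a minimum −log10 q of 3 or equal numbers of peaks, HoxD cover differed by 3.01, 4.15 and 4.39 points between genotypes, by 3.78, 4.94 and 4.57 points against HoxA, HoxB and HoxC, and by 14.3, 13.3 and 13.6 points between tissues, and the log2 ratio against the genome was 0.97, 1.34 and 0.81. Bases under both marks differed by -0.57, -0.21 and -0.24 points, and the tissue difference of the K27M effect was -7.52, -10.4 and -11.0 points. With 20000 bp added to the window, the K27M difference in H3K27me3 cover was -6.54 points and that against HoxA, HoxB and HoxC -4.99 points, while the main window gave 0.47 and 0.43. Leaving out each culture in turn gave -3.68 to 4.27 points for the first and -0.52 to 3.21 for the second (below 0 without brainstem 61, at -0.13, and without telencephalon 59, 60 or 61, at -0.05, -0.35 and -0.52), -6.75 to 0.73 for H3K4me3 cover (above 0 without telencephalon 60, at 0.55, or 61), -6.56 to 0.77 for bases under both marks (0.59 without telencephalon 60), and -17.1 to 14.7 for the tissue difference of the K27M effect. The count of members with H3K4me3 in every telencephalon control was 0 to 7, and that of bivalent members in telencephalon controls was 0 to 7 as well. Requiring 1000 bp gave 1 bivalent member in brainstem controls and 0 with H3K4me3 in every brainstem control library, and requiring a peak in every control gave 0 bivalent members in the telencephalon. Cultures are paired by the study's methods. With no replicate block, that is with the pairing dropped and genotypes permuted within tissue, 3 results with exact sign-flip p = 0.0625 passed 0.05: 1.60 for HoxD against the genome (exact permutation p = 0.0333), -25.2 points between Lnpk and Evx2 and -63.3 points between Hoxd1 and Mtx2 (exact permutation p = 0.0167 for each). These p-values set aside the pairing of the study. In the telencephalon the value against the genome restates the shorter covered length of the genome. The flanks were chosen after the peaks had been seen and were not tested against that shorter length. For tissues, a replicate block over cultures 59 and 61 gave 8.27 points for H3K27me3 and -7.06 for H3K4me3 (exact permutation p = 0.5 for each). Leaving out a brainstem control leaves 1, too few for a consensus, so that this was not run. The causes of these changes were not tested. Peak lists record no signal under the threshold, which limits what a value of 0 bp can say, most of all in telencephalon culture 59.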
